A study of Mesocricetus auratus with 8 samples.

Results

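The genes described here encode proteins that set the length of the actin thin filament of striated muscle or keep it stable, and they were chosen as a list of 10 names, Neb, Nrap, Lmod2, Lmod3, Tmod1, Tmod4, Xirp1, Xirp2, Klhl40 and Klhl41. Each was looked up by its symbol in the deposited RNA-seq table, where values were read for 8 of them among 17590 genes with values. Nrap and Xirp1 were not analysed here. Of the 8 genes, 7 had enough reads to enter the test across 12506 genes, and Lmod2 did not. The cells were wild-type satellite cells (SCs), the stem cells from which muscle regenerates, taken from hindlimb muscle of sexually mature male Slc:Syrian hamsters and grown on Matrigel in growth medium. All cells had 48 h at 37°C and then 24 h at 37°C in medium with 100 mM HEPES. Control libraries (n = 4) were made at that point, and cold libraries (n = 4) after a further 24 h at 4°C without a change of medium.

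A thin filament is a polar actin polymer with tropomyosin and troponin along its sides. Its barbed end is held in the Z disc, and its pointed end, which faces the middle of the sarcomere, is where its length is adjusted. Tropomodulins cap the pointed end, leiomodins nucleate actin and let filaments elongate, nebulin runs along the filament, and the kelch proteins Klhl40 and Klhl41 act on the stability of nebulin and, for Klhl40, of leiomodin 3. Loss of nebulin, leiomodin 3, Klhl40 or Klhl41 is known as a cause of nemaline myopathy.

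The libraries held between 16530747 and 18533801 read counts each, and all counts of the 8 genes were whole numbers. Libraries numbered 1 and 2 stood apart from those numbered 3 and 4 in both groups, on a first principal component that held 54.5% of the variance. For controls 1 to 4 the treatment label reads 3, 4, 5 and 6 days, while every title reads day 3. No library of cells kept at 37°C for the extra day was analysed here, so cold and the later harvest cannot be told apart, and the sources used do not say which animals or cultures a replicate number marks. Of 10 SC and myoblast markers, Pax7 stood at 12.7 ± 2.17 TPM (transcript abundance scaled for gene length and library depth) and Myod1 at 614 ± 103 TPM in control libraries (SD, n = 4). Heyl and Chrdl2 were the lowest of the 10, at means of 2.78 and 0.685 TPM. The 10 summed to 1922 to 2284 TPM in control and 1836 to 2120 TPM in cold libraries. In the blocked fit described below, 3 of them (Myod1, Cdh15 and Itga7) were lower at an adjusted p under 0.05 (background 4.07%). The summed TPM of 7 fibroblast markers lay between 1217 and 1739 in control and between 1201 and 1687 in cold libraries. Of the immune markers, Ptprc and Adgre1 were at or near 0, at means of 0.005 and 0 TPM in control libraries, and Cd68 was at 34.1 ± 12.2 TPM. The endothelial markers summed to at most 4.22 TPM in any library, and 4 pericyte and smooth muscle markers (Pdgfrb, Rgs5, Cspg4 and Myh11) to 65.9 to 92.7 TPM in controls against 64.5 to 87.9 TPM after cold. The fifth gene of that list, Acta2, had a mean of 1526 TPM in controls and 1097 TPM after cold.

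Each cold library held less RNA of the thin filament length genes, in sum, than the control library of its number. Mean cold levels were 35.1% of control for Lmod3, 56.1% for Klhl41, 62.9% for Tmod1, 70.1% for Neb and 70.3% for Klhl40, and 101% for Tmod4. Lmod2 was at 19.1% and Xirp2 at 69.5%, both from few reads. The 8 genes summed to 204, 201, 115 and 138 TPM in control replicates 1 to 4, and to 97.1, 116, 81.1 and 76.1 TPM in cold replicates 1 to 4. The groups overlapped, since the sum of cold replicate 2 was above that of control replicate 3. Over the same replicate numbers, 8 early differentiation markers, among them Myog and Myh3, summed to 2874, 2787, 1456 and 1676 TPM in control and to 1190, 1348, 892 and 811 TPM in cold libraries. Their part in the lower levels described here was not tested, and in bulk RNA fewer differentiating cells and less RNA per cell cannot be told apart.

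The genes were compared with edgeR's quasi-likelihood test of cold against control, giving a log2 fold change (log2FC) per gene. Called genes had an absolute log2FC of 1 or more and, after Benjamini-Hochberg adjustment across the tested genes, p under 0.05. Without the pairing of libraries, 0 of the 7 tested genes passed both thresholds, and 0.04% of all genes did so in the lower direction. At an unadjusted p under 0.05, 5 of the 7 were lower (4.13% of all genes), and 1 of these, Lmod3, also reached the fold threshold (background 0.8%). DESeq2 called 1 gene, Lmod3 (background 0.473%). Without a fold threshold, edgeR called 1 of the 7, Neb, against 0.072% of all genes, a call that several other settings lost (given with the gene). Libraries of the same number deviated together, and so, less closely, did the other libraries within numbers 1 and 2 or within 3 and 4. Blocking on the number called Lmod3 at both thresholds (background 0.808%). The block takes the pairs as independent, which was not tested. In that blocked fit, 6 of the 7 were lower at an adjusted p under 0.05 without a fold threshold, against 4.07% of all genes, and none of the 7 was higher. Of these 6, Xirp2 did not pass with the block in DESeq2 or limma. The median log2FC of the 7 was −0.72 without and −0.70 with the block, against 0.0071 and 0.0075 over all genes tested.

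**Figure D1:**
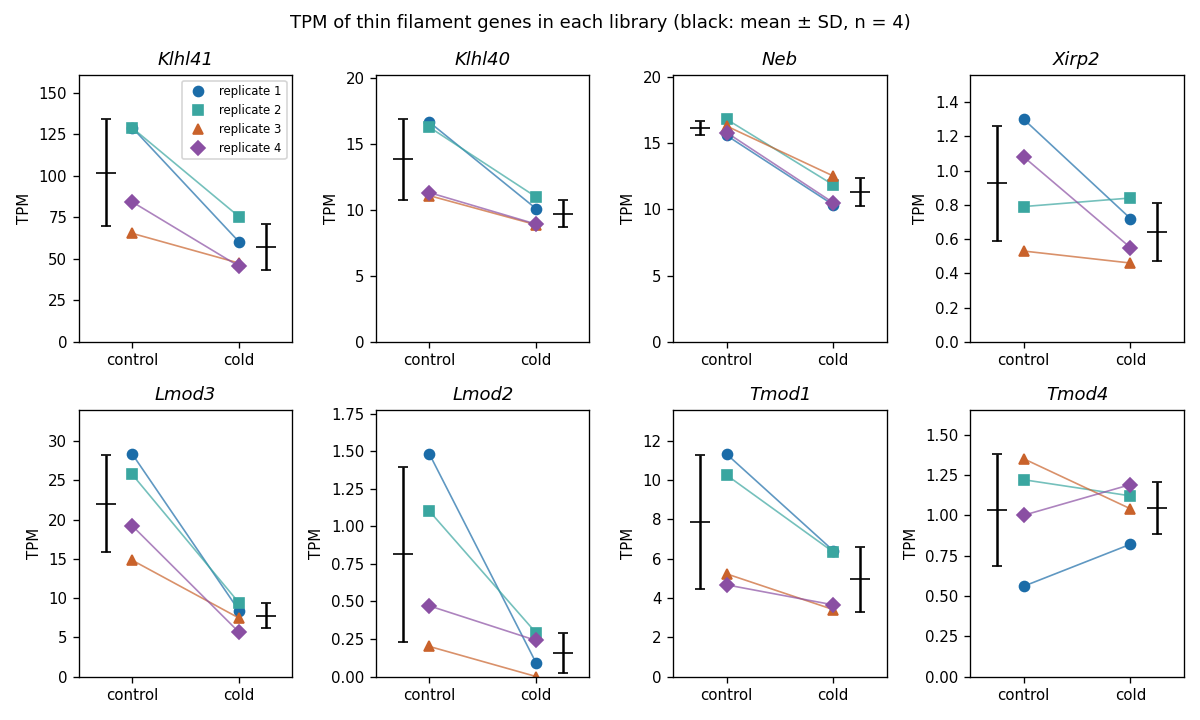
TPM (vertical axes, from 0) of the 8 thin filament genes in control and cold libraries, with 1 marker per replicate number, lines joining libraries of the same number, and the mean ± SD (n = 4) in black. Neb has nearly equal control values from 15.6 to 16.8 TPM, Tmod1 and Klhl41 are highest in replicates 1 and 2 of both groups, and Tmod4 shows no common direction.

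The gene of nebulin, the giant protein that runs along the thin filament, was the member with the least spread between controls relative to its mean. Neb (NCBI Gene 101840725) stood at 15.6, 16.8, 16.3 and 15.8 TPM in control replicates 1 to 4. In cold replicates 1 to 4 it stood at 10.4, 11.9, 12.5 and 10.5 TPM. The groups did not overlap, and the highest cold library was replicate 3.

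The mean of Neb fell from 16.1 ± 0.543 TPM to 11.3 ± 1.06 TPM (± SD, 4 libraries per group), to 70.1% of the control level. Its log2FC was −0.53 (standard error, SE, 0.07, adjusted p = 0.0454 with edgeR, or 6.74e-08 with the replicate block). The exact two-sided permutation test of its log2 TPM gave p = 0.0286, the smallest that 4 libraries against 4 allow. Between 2950 and 4935 reads per library stood behind these values, the most of any gene in the list. Neb ranked 7 among 12506 genes by unadjusted p in the fit without pairing, although its fold change was below the fold threshold. Without pairing, its adjusted p was 0.0363 without control replicate 3 and lay between 0.0833 and 0.208 on dropping another library, whereas leaving out any pair of libraries from the blocked fit left it at 1.38e-06 or lower. The call without pairing was also lost with a stricter count filter (adjusted p = 0.0516), in limma on log2 TPM (0.0731 to 0.0884 over 3 pseudocounts) and in replicates 3 and 4 alone (0.0818). Control levels of Neb did not follow the split of the libraries, the mean of control replicates 1 and 2 being 1.01 times that of replicates 3 and 4.

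Among the pointed-end genes, the leiomodins, which start and extend actin filaments, had the lowest cold levels relative to control. Lmod3 (101822927), the leiomodin of skeletal muscle, stood at 28.3, 25.7, 14.8 and 19.2 TPM in control replicates 1 to 4. Its cold values were 8.40, 9.39, 7.45 and 5.65 TPM. All cold libraries lay below all controls, and the cold values of replicates 1 and 4 were the lowest relative to their own controls, at 29.6% and 29.4%.

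Lmod3 had a mean of 22.0 ± 6.16 TPM in controls, against 7.72 ± 1.59 TPM after the cold (± SD, 4 libraries per group). Its log2FC was −1.54 (SE 0.24, adjusted p = 0.0560 with edgeR), and with the replicate block it fell by 1.52 on the log2 scale (SE 0.10, adjusted p = 2.92e-09). The exact permutation p was 0.0286. Only 0.376% of all genes tested had a lower log2FC. Leaving out control replicate 3 brought its adjusted p to 0.0186 without pairing, and leaving out any other single library gave between 0.111 and 0.249. The gene also passed both thresholds in separate fits to replicates 1 and 2 (log2FC −1.66) and to replicates 3 and 4 (−1.36).

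Lmod2 (101843074), the leiomodin best known from heart muscle, was near the limit of detection. It had 31, 24, 4 and 10 reads in control replicates 1 to 4, or 1.48, 1.10, 0.20 and 0.47 TPM. The cold libraries had 2, 6, 0 and 5 reads, or 0.09, 0.29, 0 and 0.24 TPM. Cold replicate 3 had no read, which allows up to 3 counts or about 0.143 TPM by counting error alone. Control and cold values overlapped, since control replicate 3 lay below cold replicates 2 and 4, but each cold library lay below the control of its number.

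In a fit without the filter on low counts, Lmod2 had a log2FC of −2.41 (SE 0.76, edgeR adjusted p = 0.550). With the block added to that fit, a combination chosen after the data were seen, it was −2.39 (SE 0.46, edgeR adjusted p = 8.82e-05). With the block, DESeq2 gave an adjusted p of 0.0501 (log2FC −2.49, SE 0.77) and limma on log2 TPM 0.0385 (log2FC −1.75). Few reads stand behind either value, and the exact permutation p on TPM was 0.0857. Its mean of 0.813 ± 0.583 TPM in control libraries (SD, n = 4) was the lowest of the list.

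The tropomodulins close the pointed end. Tmod1 (101842366) had 11.3, 10.3, 5.23 and 4.67 TPM in control replicates 1 to 4, and 6.41, 6.34, 3.41 and 3.65 TPM in the cold replicates of the same numbers. Its level followed the split of the libraries more than that of any other tested gene of the list, with control replicates 1 and 2 at 2.18 times the mean of replicates 3 and 4. The cold libraries of replicates 1 and 2 therefore lay above the controls of replicates 3 and 4, and the groups overlapped. Each cold library had between 56.6% and 78.2% of the level of its own control.

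For Tmod1 the log2FC was −0.72 (SE 0.36, adjusted p = 0.824 with edgeR) without pairing. In the blocked fit it fell by 0.70 on the log2 scale (SE 0.09, edgeR adjusted p = 4.99e-05), and leaving out any pair of libraries gave adjusted p-values of up to 0.00135. The exact permutation test, which ignores the pairing, gave p = 0.171.

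Tmod4 (101831526), the tropomodulin of skeletal muscle fibres, was low throughout, at 0.56, 1.22, 1.35 and 1.00 TPM in control and 0.82, 1.12, 1.04 and 1.19 TPM in cold replicates 1 to 4. Between 7 and 16 reads per library stood behind these values. It was higher in the cold in replicates 1 and 4 and lower in replicates 2 and 3. No difference was detectable at this depth: the log2FC in the blocked fit was 0.0087 with a 95% interval from −0.58 to 0.60 (edgeR adjusted p = 0.995).

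Xirp2 (101822527) encodes a Xin-repeat protein that binds and bundles actin filaments at their attachment sites. It was also low, at 1.30, 0.79, 0.53 and 1.08 TPM in control and 0.72, 0.84, 0.46 and 0.55 TPM in cold replicates 1 to 4, from between 25 and 67 reads. In TPM, replicate 2 stood at 106% of its control in the cold and the other replicates at between 50.9% and 86.8%. The direction of replicate 2 turned with the scale, since its normalized counts were 51.8 in control and 36.0 in cold. The groups overlapped.

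The log2FC of Xirp2 was −0.72 (SE 0.28, edgeR adjusted p = 0.650). With the block it was −0.72 (SE 0.18, edgeR adjusted p = 0.0216), a call that held without pair 3 (0.0160) and was lost without pair 1, 2 or 4 (0.166, 0.0599 and 0.0700). It was also lost with the block in DESeq2 (adjusted p = 0.423) and in limma on log2 TPM (adjusted p = 0.383, log2FC −0.43). On TPM the exact permutation p was 0.229.

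The kelch genes included the most abundant member of the list. Klhl41 (101840055), a substrate adaptor of the cullin-3 ubiquitin ligase that binds nebulin, had 129, 129, 65.3 and 84.2 TPM in control replicates 1 to 4. Its cold values were 60.2, 75.3, 47.3 and 45.4 TPM. Control replicate 3 was the only control below a cold library, and without it, or without cold replicate 2, the groups did not overlap.

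Klhl41 had a mean of 102 ± 32.2 TPM in controls, against 57.1 ± 13.8 TPM after the cold (± SD, 4 libraries per group), with 1164 to 3441 reads per library. Its log2FC was −0.86 (SE 0.26, adjusted p = 0.445 with edgeR), and in the blocked fit it fell by 0.83 on the log2 scale (SE 0.07, edgeR adjusted p = 1.28e-07). The exact permutation p was 0.0571. The gene made up between 56.9% and 64.9% of the summed TPM of the 8 genes in every library, so it set most of that sum.

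Klhl40 (101842189), its paralog, binds nebulin and leiomodin 3. It had 16.7, 16.3, 11.1 and 11.3 TPM in control and 10.1, 11.0, 8.87 and 8.92 TPM in cold replicates 1 to 4. On TPM the lowest control, replicate 3, was just above the highest cold library, replicate 2, and the exact permutation p was 0.0286. On the authors' normalized counts this order turned, with 488 in control replicate 3 and 507 in cold replicate 2, so whether the groups overlap depended on the scale.

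The mean of Klhl40 was 13.8 ± 3.05 TPM in controls, against 9.72 ± 1.01 TPM after the cold (± SD, 4 libraries per group). The log2FC was −0.54 (SE 0.17, edgeR adjusted p = 0.500). With the block it fell by 0.52 on the log2 scale (SE 0.07, edgeR adjusted p = 7.60e-05).

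**Figure D2:**
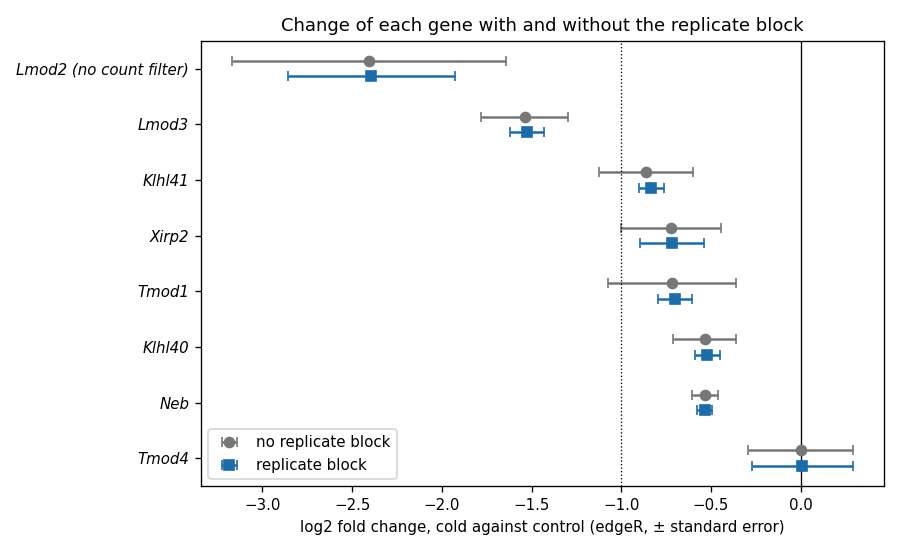
Log2FC of cold against control (horizontal axis) with its SE for the 8 genes, from edgeR fits (for Lmod2 with no count filter) without (grey circles) and with (blue squares) the replicate block, and a dotted line at the fold threshold of −1. The estimates of the 2 fits nearly coincide, while the error of Tmod1 is 0.36 without and 0.09 with the block, and the error of Tmod4 is 0.29 and 0.28.

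The block changed the errors and hardly changed the estimates. The SE without and with it was 0.07 and 0.04 for Neb, 0.36 and 0.09 for Tmod1, and 0.26 and 0.07 for Klhl41. Over the 4 pairs of libraries, 5 of the 7 tested genes, and Lmod2 besides, had lower TPM in the cold in 4 of 4 (background 10.5% of all genes tested). On TPM the control and cold groups did not overlap in 3 of the 7, Neb, Lmod3 and Klhl40 (background 2.41%).

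**Figure D3:**
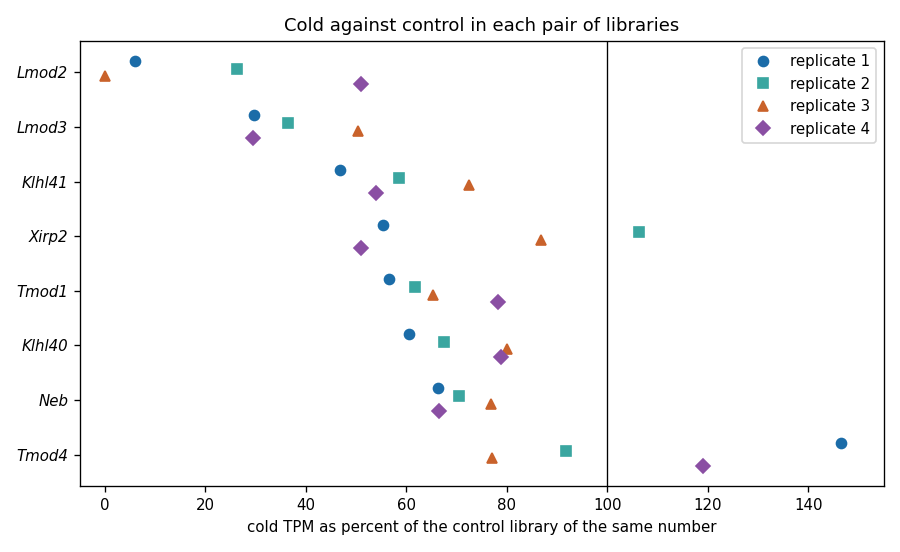
TPM of each cold library as a percentage of the control library of the same number (horizontal axis) for the 8 genes, with 1 marker per replicate number and a line at 100%. Neb lies between 66.3% and 76.8%, Lmod3 between 29.4% and 50.3%, and Tmod4 on both sides of the line.

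By level in control libraries, Klhl41 ranked first, followed by Lmod3, Neb, Klhl40, Tmod1, Tmod4, Xirp2 and Lmod2. The ranges of Lmod3 (14.8 to 28.3 TPM), Neb (15.6 to 16.8 TPM) and Klhl40 (11.1 to 16.7 TPM) overlapped, so the order of these neighbours was not fixed beyond their spread. Klhl40 and Tmod1 (4.67 to 11.3 TPM) overlapped at the edge, and the ranges of Tmod4, Xirp2 and Lmod2 overlapped as well. In cold libraries the mean of Lmod3 ranked behind those of Klhl41, Neb and Klhl40. No Lmod3 value there, at up to 9.39 TPM, reached the lowest Neb value of 10.4 TPM.

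Ratios of TPM between the genes differed between the groups. The ratios given here were chosen after the values were seen and are a description with no test. Neb relative to Lmod3 was between 0.550 and 1.10 in control and between 1.23 and 1.86 in cold libraries, with no overlap. Lmod3 relative to Tmod1, the actin nucleator against the pointed-end cap, was between 2.50 and 4.11 in control and between 1.31 and 2.18 in cold libraries. Klhl41 relative to Klhl40 overlapped between the groups, at 5.89 to 7.92 in control and 5.09 to 6.86 in cold libraries, and each cold library lay below its control (4 of 4 pairs).

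Ratios to genes outside the list differed with the actin gene chosen. Neb relative to Acta1, the skeletal alpha-actin gene, averaged 0.0275 ± 0.00939 in control and 0.0659 ± 0.0117 in cold libraries (± SD, 4 libraries per group) and was higher in the cold in 4 of 4 pairs. Relative to Actc1, the cardiac and more abundant alpha-actin gene, Neb averaged 0.00343 ± 0.00116 and 0.00361 ± 0.00116, with overlapping groups. Tmod1 relative to Tmod3, the tropomodulin found in most cell types, averaged 0.146 ± 0.0771 in control and 0.0807 ± 0.0292 in cold libraries and was lower in 4 of 4 pairs.

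**Figure D4:**
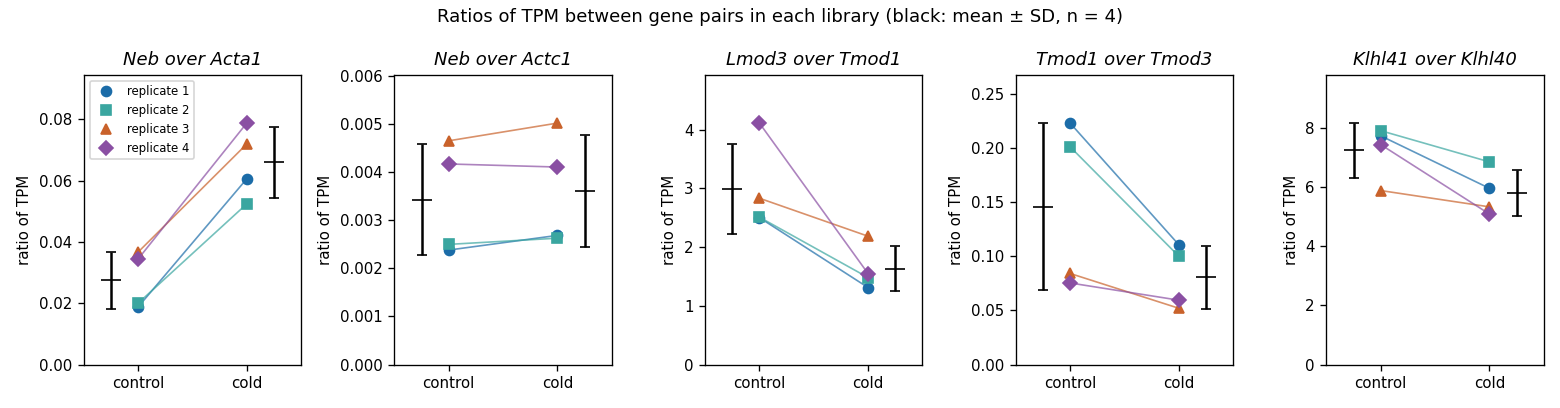
Ratio of TPM (vertical axes, from 0) between 5 pairs of genes in control and cold libraries, with 1 marker per replicate number, lines joining libraries of the same number, and the mean ± SD (n = 4) in black. Neb over Acta1 is higher in every cold library than in any control, Lmod3 over Tmod1 is lower in every cold library, and the other ratios overlap between groups.

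The other genes of the thin filament and its regulation were followed in 5 lists, and 0 of their 48 tested genes passed both thresholds, or the adjusted p alone, in edgeR without pairing. At an unadjusted p under 0.05, 17 were lower and 1 was higher (backgrounds 4.13% and 2.57%), and DESeq2 called 7 lower at both thresholds (background 0.473%). In the blocked fit 8 of the 48 were called lower (background 0.808%). Of 12 actin, tropomyosin and troponin genes, 10 were lower and 1, Tpm3, was higher at an adjusted p under 0.05 in the blocked fit (backgrounds 4.07% and 1.26%). Their median log2FC of −0.71 without pairing stood beside −0.72 for the thin filament length genes. The most abundant were Actc1, the cardiac alpha-actin gene, at 5145 ± 1733 TPM in control libraries with a blocked log2FC of −0.61, and the fast troponin T gene Tnnt3 at 737 ± 265 TPM with −0.65 (edgeR adjusted p = 0.764 and 0.766 without, 8.13e-09 and 2.57e-08 with the block). The largest changes were those of the slow troponin T gene Tnnt1 (blocked log2FC −2.18) and Acta1 (−1.85), with adjusted p-values of 0.246 and 0.0560 without and 1.28e-08 and 9.63e-11 with the block in edgeR. Tpm3, singled out after its values were seen, had a log2FC of 0.15 with the block (edgeR adjusted p = 0.0189), a call lost without pair 1, 2 or 3 (adjusted p of up to 0.139).

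Of 10 paralogs of the listed genes and capping genes, many of them active in most cell types, 9 were tested and 0 passed the adjusted p threshold in either fit, with 0 of the 9 also at an unadjusted p under 0.05 without pairing. Their median log2FC was 0.03. Cfl1, which encodes the actin-severing protein cofilin 1, stood at 1308 ± 78.8 TPM in controls, against 1386 ± 36.6 TPM after the cold. Capzb, the beta subunit of the barbed-end capping protein, stood at 509 ± 22.1 and 495 ± 10.1 TPM (± SD, 4 libraries per group). Tmod2 and Cfl2 had the largest log2FC values of the 9, −0.24 and −0.13, and Tmod2 was below 0.3 TPM in all libraries. Tmod3, shown here as the paralog of Tmod1, had a 95% interval of the log2FC of 0.03 to 0.21 with the block, against −0.90 to −0.50 for Tmod1. Without the block both intervals included 0 and they overlapped, at −0.018 to 0.26 for Tmod3 and −1.52 to 0.08 for Tmod1. Tmod3 had an edgeR adjusted p of 0.123 with the block, and of 0.0450 (without pair 4) to 0.634 over the left-out pairs.

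The list of the cullin-3 ligase and other kelch genes had 2 of 7 tested genes lower at an adjusted p under 0.05 in the blocked fit (background 4.07%). These were Klhl31, a kelch gene of striated muscle, which went from 7.64 ± 2.59 to 5.11 ± 1.31 TPM, and Klhl13, from 43.0 ± 3.09 to 33.8 ± 1.28 TPM (± SD, 4 libraries per group), with edgeR adjusted p-values of 0.797 and 0.175 without and 0.00140 and 3.14e-05 with the block. Rbx1, the RING subunit of the ligase, stood at 157 ± 1.11 and 152 ± 6.57 TPM, and Klhl22 at 100 ± 12.7 and 95.1 ± 10.0 TPM. Cul3, the scaffold shared by Klhl40 and Klhl41, had a blocked log2FC of 0.10 (95% interval 0.0087 to 0.19, edgeR adjusted p = 0.224). Leaving out pairs gave adjusted p-values from 0.0252 (without pair 4) to 0.684, and without the block the interval was −0.031 to 0.23. Klhl40 relative to Cul3 was between 0.157 and 0.288 in control and between 0.132 and 0.155 in cold libraries, with no overlap.

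Among 12 anchoring and binding partners, 6 were lower at an adjusted p under 0.05 in the blocked fit and none was higher (backgrounds 4.07% and 1.26%). Csrp3, a muscle LIM protein of the Z disc, went from 15.9 ± 11.3 to 2.44 ± 1.82 TPM, a blocked log2FC of −2.75. Ldb3, a Z-disc PDZ-LIM protein gene, went from 8.11 ± 4.01 to 2.27 ± 0.771 TPM, a blocked log2FC of −1.75. The edgeR adjusted p-values of Csrp3 and Ldb3 were 0.269 and 0.241 without and 4.98e-10 and 8.49e-09 with the block. The 2 most abundant genes of the list serve adhesion in many cell types: Ctnnb1 had a blocked log2FC of 0.01 and Vcl of 0.08, with adjusted p-values of 0.903 and 0.184 in the blocked edgeR fit.

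Of 8 genes of the serum response factor, MRTF and MEF2 pathways, which drive sarcomere gene transcription, 5 were lower at an adjusted p under 0.05 in the blocked fit (background 4.07%). Abra, an actin-binding activator of MRTF signalling, went from 3.33 ± 1.37 to 0.738 ± 0.248 TPM, and Smyd1, a muscle methyltransferase, from 9.98 ± 4.31 to 3.59 ± 1.16 TPM (± SD, 4 libraries per group). Their blocked log2FC values were −2.18 and −1.49, with edgeR adjusted p-values of 0.112 and 0.250 without and 8.55e-07 and 6.03e-09 with the block. The abundant Mef2a and Mef2d had blocked log2FC values of −0.18 and −0.18 (edgeR adjusted p = 0.999 and 0.962 without the block). Their adjusted p-values with the block were 0.0147 and 0.0399, and they rose to as much as 0.0880 and 0.313 when a pair was left out. Srf, Mrtfa and Mrtfb were the genes of the list not called lower. They had blocked log2FC values of 0.14, −0.059 and 0.028 (edgeR adjusted p = 0.103, 0.614 and 0.847).

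**Figure D5:**
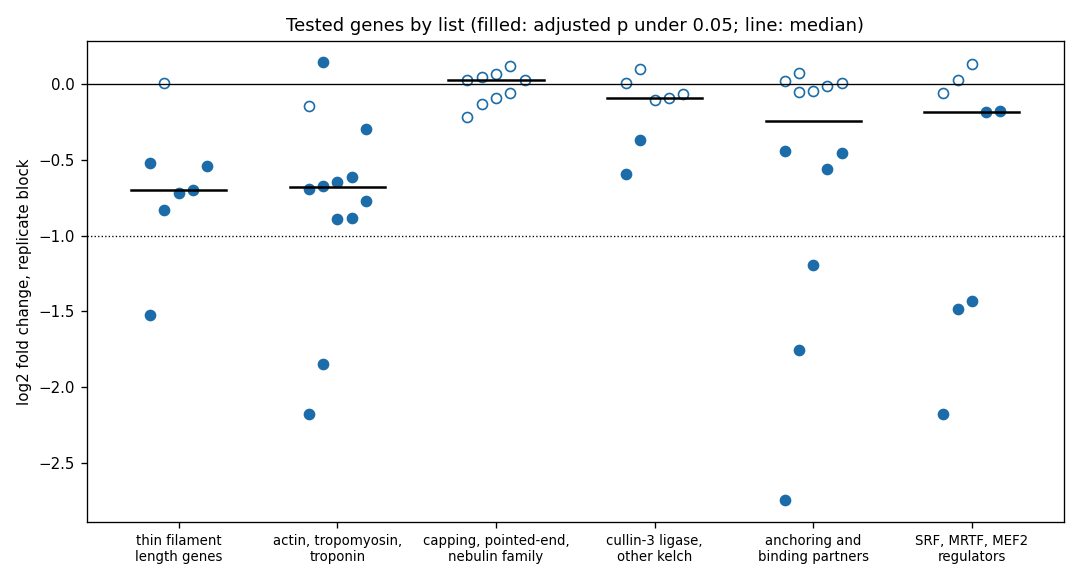
Log2FC with the replicate block (vertical axis) of the tested thin filament length genes, left, and of 5 lists of related genes, with 1 circle per gene, filled at an adjusted p under 0.05, and a line at the median of each list. All 9 capping, pointed-end and nebulin-family paralogs lie near 0 with open circles, while 10 of 12 actin, tropomyosin and troponin genes lie below 0 with filled circles.

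Some genes followed nearly the same course over the 8 libraries as members of the list. Likeness was the root-mean-square difference of log2(TPM + 0.1), centred over the 8 libraries, among 10487 genes with a mean of at least 1 TPM. Nearest to Klhl40 was Actn3, at 0.0499, followed by Acta2 at 0.0640 and Cacnb1 at 0.0704. Klhl41 was nearest to Synpo2l (0.0715), Hjv (0.0897) and Unc45b (0.0925). Neb was nearest to Cobl (0.0757), Rap1gap2 (0.0890) and Dbndd1 (0.0955).

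Tmod1 lay nearest to Pdlim3 (0.0944), Myh1 (0.118) and Myog (0.118), and Lmod3 to Myh3 (0.113), Mturn (0.156) and Gprc5c (0.161). Tmod4 and Xirp2 had no gene closer than 0.155 and 0.207. Among the 7 tested genes, the closest pair was Neb and Klhl40 at 0.231 and the most distant Lmod3 and Tmod4 at 0.971.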

How the data were processed

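Cultured Syrian hamster SCs were profiled by poly(A) RNA-seq in 4 control and 4 cold libraries. The authors deposited one table. Its expected counts, as deposited, are read counts per gene that are not normalized and not all whole. Its TPM values were scaled within each library by the authors. The remaining columns, normalized counts, are signal that the authors obtained by multiplying each count, rounded up, by 1 factor per library. The submitters' processing notes name HISAT and HISAT2, and the genome build and the counting program are not given in the sources used here, so no coordinates or sequences are printed. Every column of per-sample values was read.

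After rounding, differences were tested in R 4.3.3 by edgeR 4.0.16 (filterByExpr, TMM, quasi-likelihood F test, Benjamini-Hochberg over 12506 genes). The SE of a log2FC is its size over the root of F, and 95% intervals use the degrees of freedom of that test. Single genes were compared by an exact two-sided permutation test of log2(TPM + 0.1) over 70 arrangements. P-values set a difference against the spread between these libraries, or in the blocked fits against the spread of the differences within pairs. Floors of 3 counts cover counting error only. The script recovered known changes in simulated data. These were larger than that of any tested member, lay in well-covered genes and came without the split of the libraries. How well smaller changes or genes with few reads are recovered was not tested. DESeq2 1.42.0, limma 3.58.1 and Python 3.11.15 with matplotlib 3.10.9 were also used.

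Deviations from the group means correlated across genes, which are not independent replicates, at 0.61, 0.62, 0.65 and 0.66 between libraries of the same number. With every pair over 0.1, the numbers were taken to pair the libraries. They also correlated at 0.43 to 0.59 between the other libraries within numbers 1 and 2 or within 3 and 4. Within groups, libraries differed by more than sampling noise, with a chi-square per gene of at least 2.46, so none was counted as a copy. Between libraries 1 and 2 it was 2.46 in control and 2.78 in cold, and between libraries 3 and 4 it was 6.99 and 4.78. Between a library numbered 1 or 2 and one numbered 3 or 4 it was 18.9 to 27.0. The 4 pairs may thus be fewer independent units than the blocked p-values assume, which was not tested.

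The members and lists were chosen with earlier results of these data known. From each related list the 2 most abundant tested genes and the 2 with the largest absolute log2 fold change were named, and for each tested member the 3 genes nearest in profile. Alternatives were other size factors and count filters, DESeq2, limma on log2 TPM, the replicate block, left-out libraries or pairs, and replicates 1 and 2 or 3 and 4 alone.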

Additional observations from a re-analysis of the deposited data

How the results depend on the processing

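Depth limited Lmod2, Tmod4 and Xirp2, whose libraries held at most 31, 16 and 67 reads. In the 27 settings that gave a value, including the one reported, the log2 fold change was negative in all 27 for Neb (−0.61 to −0.47), Lmod3 (−1.70 to −1.36), Tmod1 (−0.91 to −0.50), Xirp2 (−0.91 to −0.22), Klhl40 (−0.71 to −0.32) and Klhl41 (−1.04 to −0.67), and in all 9 for Lmod2 (−2.81 to −0.60). Tmod4 had no stable sign. It was positive with the replicate block (0.0087), with library totals (0.0014), with DESeq2 and the replicate block (0.039), with limma on log2 TPM at a pseudocount of 0.1 (0.062, with or without the block), 1 (0.021) or 0.01 (0.074), in replicates 1 and 2 only (0.056), and with the block and no count filter (0.0044). Leaving out single libraries gave −0.20 to 0.12 for Tmod4, and leaving out pairs in the blocked fit gave −0.10 to 0.15.

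The number of members called lower, 0 without pairing, was 1 with the replicate block, in each blocked fit without 1 pair, with DESeq2 with and without the block, without a count filter and in replicates 3 and 4 only. It was 2 with limma and the block, in replicates 1 and 2 only, and in the blocked fit without a count filter. Leaving out single libraries gave 0 to 1, the 1 being without control replicate 3. Without a fold threshold it was 1, and 6 with the block (0.072% and 4.07% of all genes). At both thresholds the share of all genes was 0.04% without pairing, 0.808% with the block and 0.473% with DESeq2 without the block. For the other settings no such share was computed, so their counts, also those of related genes, stand without a background. The related genes called lower, 0 without pairing, were 8 with the block in edgeR, DESeq2 or limma, 7 with DESeq2 alone, 1 with library totals or without a count filter, 11 in replicates 1 and 2 only, 5 in replicates 3 and 4 only, and 9 in the blocked fit without a count filter. There were 23 with the block and no fold threshold, 8 to 9 when pairs were left out of the blocked fit, and 0 to 2 when single libraries were left out (2 without control replicate 3). The median log2 fold change of the members, −0.72, was −0.51 with limma at a pseudocount of 1, −0.52 in replicates 3 and 4 only, and −0.89 to −0.53 when single libraries were left out. The members whose groups did not overlap, 3 on TPM (background 2.41%), numbered 2 on CPM or the authors' normalized counts and 3 to 5 when single libraries were left out. The 5, without control replicate 3, added Lmod2 and Klhl41. Leaving out a library makes non-overlap easier for any gene, and the share over all genes was computed only for TPM with all libraries. In a pairwise count, 6 were lower in every replicate pair (background 10.5% of all genes tested). The causes of these shifts were not tested.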

Other observations

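No control or cold library stood apart from the other 3 of its group in TPM by Dixon's criterion, in 56 groups of 4 values over the 8 thin filament genes and the 20 related genes named by the rule, where chance gives about 2.8. Klhl30, a kelch gene of the related list that the count filter removed, was chosen here after its values were seen. Its mean was 0.368 ± 0.145 TPM before and 0.110 ± 0.0424 TPM after the cold (SD, 4 libraries each), with lower values in 4 of 4 cold libraries than in their own controls (exact two-sided permutation p = 0.0571).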
